A study of Mus musculus with 4 samples.

Results

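The 10 genes described here belong to the p53 pathway and to the machinery of programmed cell death that it feeds: Trp53, Mdm2, Ccng1, Trp53inp1, Cdkn1a, Phlda3, Bax, Bbc3, Fas and Casp8. They were taken by symbol from the gene tables of the deposited matrices, which list 30028 different genes over the 4 libraries, and each of the 10 symbols occurred once in every library. All 10 were measured, with totals over the kept cells from 1797 unique molecular identifiers (UMIs, tags that count single captured RNA molecules) for Bbc3 to 34519 for Cdkn1a. The choice did not use their values, but it was made when earlier results of these data were known.

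The study compared wild-type (WT) mice with FUNDC1 knockout mice, lacking a receptor of the outer mitochondrial membrane that marks mitochondria for removal, under 2 conditions. Mice of the HySu model of pulmonary hypertension were kept in hypoxia and given SU5416, an inhibitor of the VEGF receptors on which endothelial cells depend, in 3 weekly doses, and controls were given vehicle and kept in normoxia. The groups were Normoxia-WT, abbreviated NW, and Normoxia-FUNDC1-KO, abbreviated NK, beside their HySu counterparts HySu-WT (HSW) and HySu-FUNDC1-KO, for short HSK. Each was a single library of lung cells pooled from 5 mice aged 11 weeks and captured in GEXSCOPE microwells. Neither the cells that lost the gene, nor how it was deleted, nor whether the libraries were prepared together is given in the labels used here. With 1 library a group there is no replicate and no test: genotype or treatment and the library itself cannot be told apart, and every interval below covers counting error only.

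The tumour suppressor p53, the product of Trp53, is a transcription factor that accumulates after DNA damage, hypoxia and other stress, mostly through its protein rather than its RNA. Its targets include Mdm2, whose product removes p53 in a feedback loop, genes that stop the cell cycle, and genes that start death from within the cell through BCL2-family proteins on mitochondria or from outside through death receptors. In the lung circulation, death of endothelial cells after VEGF receptor blockade is thought to precede the growth of surviving cells, and p21 is one of the proteins that decide whether an injured cell divides.

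After cells with RNA of more than 1 lineage were removed, 5175 NW, 5910 NK, 3793 HSW and 3485 HSK cells were kept. The removal took 32.3%, 35.5%, 24.7% and 15.6% of cells, so it acted unequally on the libraries, and between 20 and 70 barcodes were shared by a pair of libraries. Classes were named from marker genes, and names such as endothelial stand for endothelial-like cells throughout. The vascular endothelial class held 53 NW cells, 135 NK cells, 269 HSW cells and 130 HSK cells. Their 8 markers, Pecam1 and Cdh5 among them, summed to 12558, 14545, 12425 and 11440 CPM (counts scaled to a total of 1000000 for each class and library), against at most 439 in the other classes outside lymphatic endothelium, and none was at 0. Fundc1 itself stood at 44.1 CPM in NW and 39.2 in HSW, but at 1.04 in NK and 0.228 in HSK, low in both libraries labelled knockout. Levels below are in CPM, the 4 values of a series are in the order NW, NK, HSW, HSK unless named, ratios are quotients of such levels, and levels are not compared between genes because the UMIs sample transcript ends.

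The gene coordinates are those of GRCm38. Trp53 lies at chr11:69580359-69591873 on the forward strand, Mdm2 at chr10:117688875-117710758 on the reverse strand, Ccng1 at chr11:40748552-40755311 on the reverse strand and Trp53inp1 at chr4:11156431-11174379 on the forward strand. Cdkn1a spans chr17:29090976-29100727 (forward), Phlda3 chr1:135766119-135769136 (forward), Bax chr7:45461697-45466898 (reverse), Bbc3 chr7:16308393-16318205 (forward), Fas chr19:34290666-34327772 (forward) and Casp8 chr1:58795374-58847503 (forward). A second annotated gene overlaps Cdkn1a (AC167363.2, on the opposite strand), Bax (Gm45808), Fas (Gm27818) and Casp8 (Gm37760), and the strand setting of the counting is not given in the sources used here.

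Promoter sequence is shown for 4 of the 5 members whose windows matched the p53 half-site, a part of the p53 response element. They were picked for that match, so it is not a trait that the 10 genes share. In the 250 bases before the start (RefSeq, GRCm38.p6), 12 windows of 9 members were searched on both strands for the 10-base p53 half-site consensus, and 5 windows, of Trp53, Mdm2, Ccng1, Cdkn1a and Bax, held it. It occurs in 7.13% of the 32851 promoter windows of the same length. Adjacent pairs of half-sites, 20 bases with at most 1 mismatch, were found in 2 member windows, of Cdkn1a and Ccng1, and in 25 (0.0761%) of all windows. In the lines below, each 5′ to 3′ on the strand of the gene, capitals mark half-sites and the pairs they form. The windows are chr17:29090729-29090978 forward for Cdkn1a, at the upstream of its annotated starts, chr11:40755287-40755536 reverse for Ccng1, chr10:117710759-117711008 reverse for Mdm2 and chr7:45466899-45467148 reverse for Bax.
Cdkn1a: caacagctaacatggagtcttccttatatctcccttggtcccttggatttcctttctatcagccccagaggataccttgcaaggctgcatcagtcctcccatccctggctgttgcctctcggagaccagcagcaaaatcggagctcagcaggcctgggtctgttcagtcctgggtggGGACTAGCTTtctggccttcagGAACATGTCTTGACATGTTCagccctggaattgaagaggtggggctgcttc
Ccng1: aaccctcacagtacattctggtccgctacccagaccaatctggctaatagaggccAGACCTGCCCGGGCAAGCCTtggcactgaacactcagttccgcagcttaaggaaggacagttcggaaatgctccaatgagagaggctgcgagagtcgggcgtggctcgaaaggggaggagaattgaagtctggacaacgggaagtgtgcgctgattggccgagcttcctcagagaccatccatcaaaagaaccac
Mdm2: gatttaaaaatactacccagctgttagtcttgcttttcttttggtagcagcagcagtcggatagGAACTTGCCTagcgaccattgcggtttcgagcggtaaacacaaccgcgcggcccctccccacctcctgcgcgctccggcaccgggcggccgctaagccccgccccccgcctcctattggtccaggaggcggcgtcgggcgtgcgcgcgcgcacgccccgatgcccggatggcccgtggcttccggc
Bax: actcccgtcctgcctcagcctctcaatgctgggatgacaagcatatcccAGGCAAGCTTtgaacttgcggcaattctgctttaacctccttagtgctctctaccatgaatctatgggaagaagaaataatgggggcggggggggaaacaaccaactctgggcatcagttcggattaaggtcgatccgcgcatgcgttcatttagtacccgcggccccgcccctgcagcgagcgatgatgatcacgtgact

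The pair in Cdkn1a, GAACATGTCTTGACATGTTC at chr17:29090928-29090947, begins 51 bases before the upstream start and 2841 bases before the start used by the other Cdkn1a window, which lies 2790 bases downstream and holds no half-site. The pair in Ccng1, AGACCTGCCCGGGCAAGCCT, begins 195 bases before the start. Mdm2 and Bax hold single half-sites, GAACTTGCCT and AGGCAAGCTT, and the windows of Phlda3, Bbc3, Fas and Casp8 hold none. The sequence GCGTG was present in 7 of the 12 windows, of 5 members, against 28.2% of all windows. All 3 Bbc3 windows were among the 7. The sequence ACGTG, which the Bax window holds, was not searched, so hypoxia response cores of either form were not counted. A match is a string of letters and not a measured binding site.

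Across the lung, the members divided into genes present in nearly every class and genes held by few. Cdkn1a, which encodes the cyclin-dependent kinase inhibitor p21 and halts the cell cycle, was highest in endothelial cells, at 339 (NW), 924 (NK), 875 (HSW) and 1268 (HSK) CPM. In NW this was next to the 338 of alveolar macrophages, so endothelial cells stood apart in NK, HSW and HSK only. Alveolar macrophages were at 349, 281 and 287 in those 3 libraries, monocytes at 222 to 251 over all 4 libraries, and alveolar type 2 cells, which make surfactant, at 51.3 to 99.9.

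Fas, the death receptor that starts apoptosis from the cell surface, was also highest in endothelial cells in all 4 libraries among the 8 classes with at least 50 cells in each. Its level there was 235, 220, 280 and 339, against 62.6, 52.4, 81.2 and 77.1 in fibroblasts and 3.38 to 6.23 in alveolar type 2 cells. Casp8, the initiator caspase that Fas recruits, had a different distribution and was at least as high in alveolar macrophages (82.5, 68.0, 108 and 87.7) as in endothelial cells (70.2, 33.5, 95.3 and 87.3). In fibroblasts Casp8 was at 18.2, 19.5, 14.4 and 6.64.

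Phlda3, a p53 target whose product competes with AKT for membrane lipids and so restrains survival signalling, was confined to fewer classes. It stood at 180, 166, 319 and 288 in endothelial cells, at 192, 149, 202 and 187 in fibroblasts and at 117, 109, 107 and 76.7 in alveolar macrophages. In monocytes it was at 4.13 to 5.90 and in alveolar type 2 cells at 5.57 to 8.04. Endothelial cells and fibroblasts were therefore close to each other in NW and NK, and endothelial cells were the higher in HSW and HSK.

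Bax, whose product opens the outer mitochondrial membrane, was present in all classes. In monocytes its level was 183, 154, 242 and 229, in alveolar macrophages 175, 164, 239 and 220, and in endothelial cells 137, 149, 402 and 382. It was lowest in alveolar type 2 cells, at 41.8 to 48.3, and airway cells, at 27.7 to 57.8. Bbc3, which encodes the BH3-only protein PUMA that unleashes Bax, was scarce throughout. Monocytes held 27.9, 25.8, 23.6 and 14.6, and endothelial cells held 1, 11, 38 and 11 UMIs in all, which is 3.05, 18.4, 22.4 and 12.5 CPM.

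Trp53 and its feedback regulator Mdm2 were spread more evenly. Trp53 was at 45.8, 45.3, 43.5 and 26.1 in endothelial cells, at 56.3, 67.4, 49.9 and 51.8 in T and natural killer cells and at 7.10 to 11.6 in alveolar type 2 cells. Mdm2 was at 51.9, 48.6, 38.3 and 48.7 in endothelial cells and at 61.8, 63.0, 39.5 and 33.9 in monocytes. Ccng1, a cyclin that binds the phosphatase PP2A and acts on MDM2, was as high in fibroblasts (96.5, 94.5, 90.4 and 94.3) as in alveolar macrophages (92.1, 98.0, 97.2 and 90.3). Trp53inp1, a stress protein with roles in autophagy and p53 activation, was highest in T and natural killer cells, at 75.1, 125, 60.6 and 92.4 (35 cells in HSK). In alveolar macrophages it was at 6.34, 15.6, 8.85 and 8.32.

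**Figure D1:**
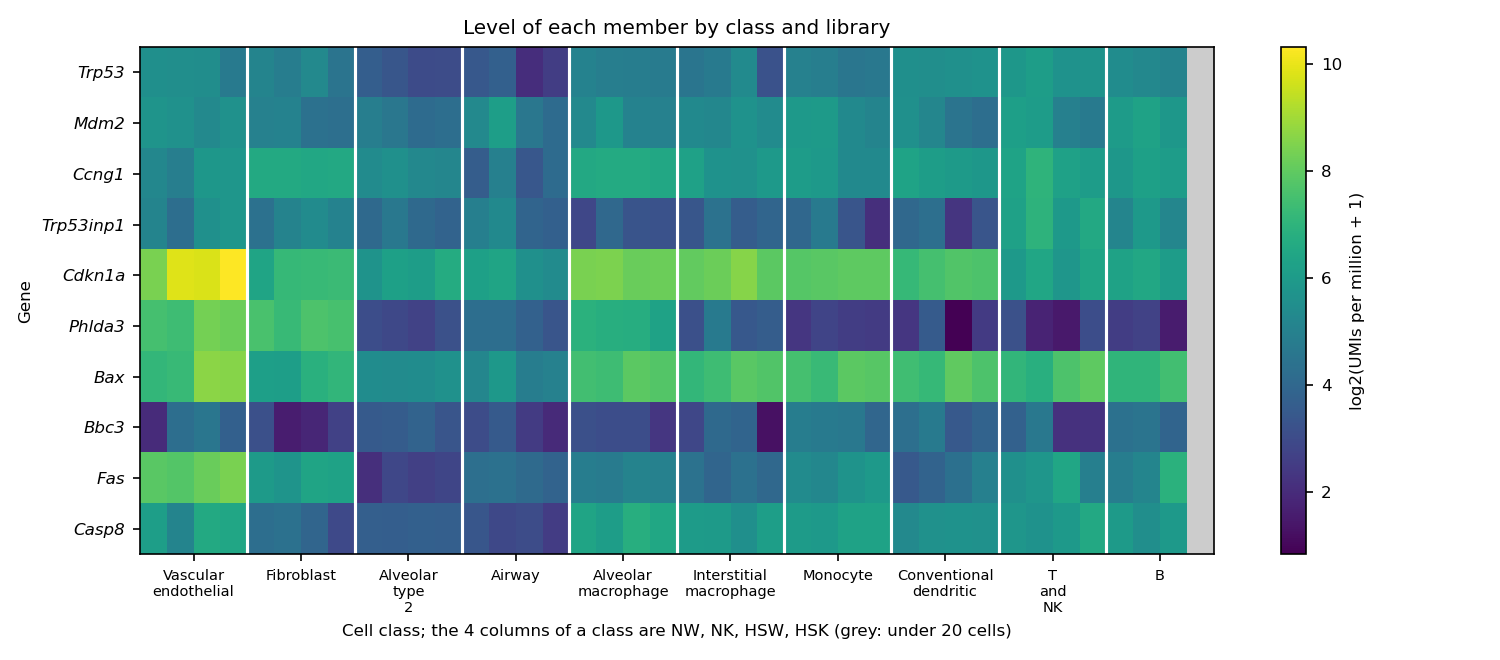
Level of each gene as log2(CPM + 1), in colour, with genes as rows and cell classes as blocks of 4 columns. The columns of a block are in the order NW, NK, HSW, HSK. The class T and NK is named for T and natural killer cells, and grey marks fewer than 20 cells. Colours are to be read along a row: Cdkn1a and Fas are brightest in the endothelial block, Phlda3 in endothelial cells and fibroblasts, and Bax is brighter in the HSW and HSK columns of endothelial cells than in NW and NK.

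The genes whose levels over classes and libraries lay closest to those of each member were found by Pearson correlation of log2(CPM + 1) over 38 points of 10 classes, among 11615 genes. The points share libraries and classes, so this is a description of where the genes are expressed. Fas lay closest to Thbd (thrombomodulin, r = 0.836), Ly6a (0.830) and Id3 (0.829), genes high in lung endothelium. Cdkn1a lay closest to Dusp3 (0.898), Frmd4a (0.883) and Nostrin (0.863, a partner of endothelial nitric oxide synthase). Phlda3 lay closest to Plscr4 (0.925), Lepr (0.924) and Tgfb2 (0.907), while Bax lay closest to Arpc3 (0.937), Psmb10 (0.928) and Ssu72 (0.916). For Casp8 these were Faim (0.931), Gngt2 (0.929) and Bola2 (0.927), for Trp53 Hnrnpm (0.911), Supt16 (0.904) and Sf3a3 (0.904), and for Ccng1 Smc6 (0.871), Sec11a (0.855) and Ola1 (0.847). For Mdm2 they were Slc25a37 (0.863), Hipk1 (0.839) and Trmt1l (0.835), for Trp53inp1 Gimap9 (0.837), Ablim1 (0.820) and Hmgn5 (0.787), and for Bbc3, the scarcest member, Cyb561d1 (0.729), 4930589O11Rik (0.721) and Jarid2 (0.712). No other member was among the 3 nearest genes of any member.

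HySu in wild-type lung was read from HSW against NW, which asks what hypoxia with VEGF receptor blockade does to these genes where FUNDC1 is present. In endothelial cells Cdkn1a, Bax, Phlda3 and Bbc3 were higher in HSW, and no member was lower by the size used here. A gene was counted as higher or lower where the ratio was at least 1.5 times in either direction, its 95% interval left out 1 and the pair of libraries held at least 20 UMIs. By this rule 4 of 10 members were higher and 0 lower, beside 6.02% of 8753 genes higher and 10.6% lower. The median log2 ratio, here and below taken with 0.5 UMI added to each number, was 0.50 over the members and -0.11 over all genes measured in the class.

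Cdkn1a in endothelial cells went from 111 UMIs in NW to 1487 in HSW, a ratio of levels of 2.58 (95% interval 2.13 to 3.16). Bax had the larger ratio, 2.93 (2.16 to 4.05), with 45 UMIs in NW, and Phlda3 a smaller one, 1.77 (1.35 to 2.36). All 3 are p53 targets in other systems, and they act on different processes, arrest, membrane opening and survival signalling. Bbc3 had a ratio of 7.33 (1.24 to 297), which rested on 1 UMI in NW and was 1.38 (0.896 to 2.19) when only Scrublet calls were removed. Ccng1 was at 36.6 in NW and 56.5 in HSW (ratio 1.54, 0.844 to 3.09) and Trp53inp1 at 33.6 and 47.1 (1.40, 0.744 to 2.92), both with intervals that include 1. Trp53, at a ratio of 0.952 (0.541 to 1.79), and Mdm2, at 0.738 (0.427 to 1.34), had no difference beyond counting error. Fas had a ratio of 1.19 (0.936 to 1.54) and Casp8 of 1.36 (0.875 to 2.20), so neither arm of the death receptor pathway passed the size used, though Fas reached 1.72 (1.48 to 2.00) when only Scrublet calls were removed.

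**Figure D2:**
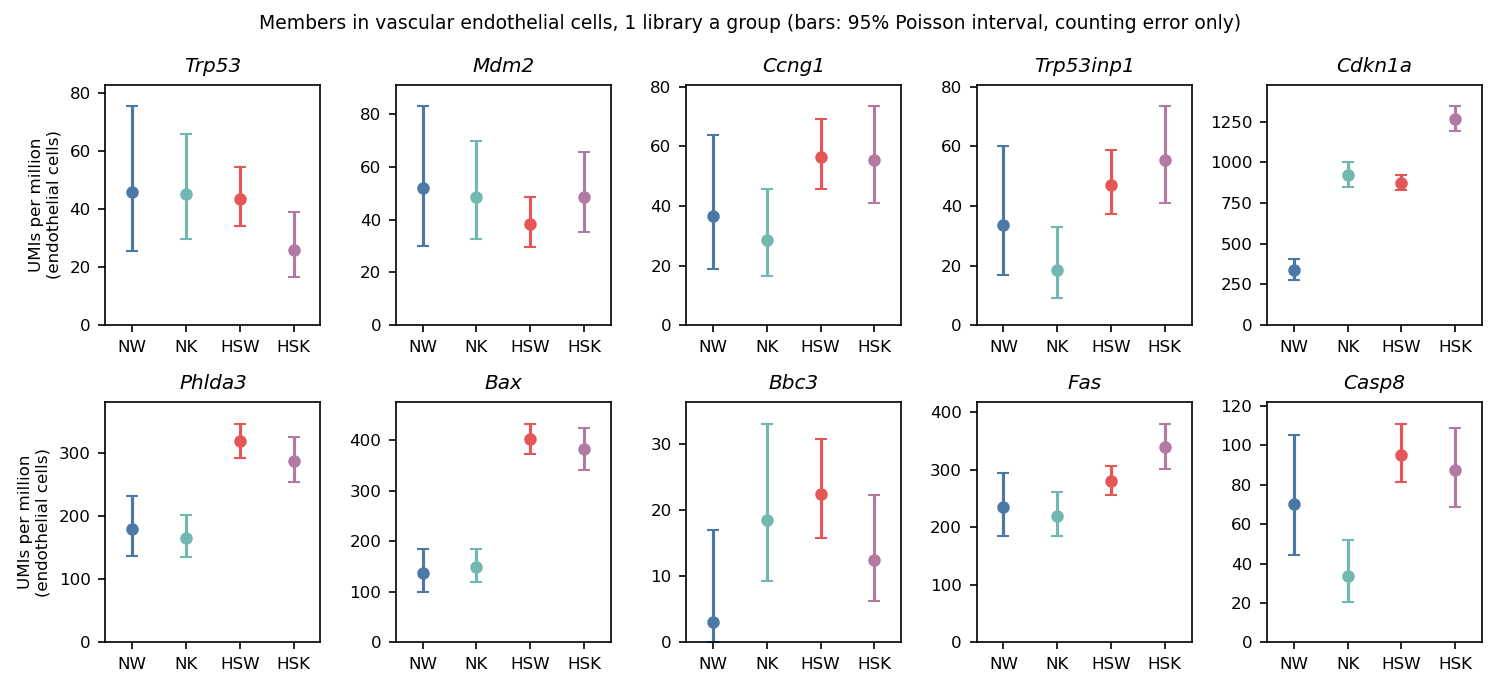
CPM of each member in endothelial cells (vertical axis, from 0, different for each gene) in the 4 libraries; points are the library values and bars the exact Poisson 95% interval, which covers counting error only. Cdkn1a is lowest in NW (339) and highest in HSK (1268), Bax and Phlda3 are higher in both HySu libraries than in both normoxia libraries, and Mdm2 and Trp53 have wide, overlapping intervals apart from the low Trp53 value in HSK.

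Per cell, the difference in Cdkn1a was one of how many endothelial cells carried the RNA and how much each carried. With every cell thinned to 3182 UMIs, the depth of the shallowest cell, Cdkn1a was detected in 50.9% (Clopper-Pearson 95% interval 36.8 to 64.9) of NW, 88.1% (81.5 to 93.1) of NK, 83.3% (78.3 to 87.5) of HSW and 96.2% (91.3 to 98.7) of HSK endothelial cells. Unthinned shares were 64.2%, 91.9%, 92.2% and 99.2%. The median thinned cell held 1, 2, 2 and 3 UMIs. Without thinning, the tenth of cells with most Cdkn1a held 44.1%, 31.9%, 28.3% and 24.1% of the UMIs, so the higher totals were not carried by a few cells. Alveolar type 2 cells, at the same depth, had Cdkn1a in 11.0% to 20.1%, and T and natural killer cells in 9.09% to 17.6%.

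Bax was detected in 26.4%, 32.6%, 69.1% and 66.9% of thinned endothelial cells. For Phlda3 the shares were 37.7%, 31.1%, 54.6% and 51.5%, against 0.457% to 1.56% in monocytes, a class in which its level was low. For Fas they were 39.6%, 41.5%, 52.4% and 64.6%, against 0.628% to 2.09% in alveolar type 2 cells. Bax and Phlda3 therefore split by condition, normoxia against HySu, whereas the Cdkn1a share was low in NW alone.

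**Figure D3:**
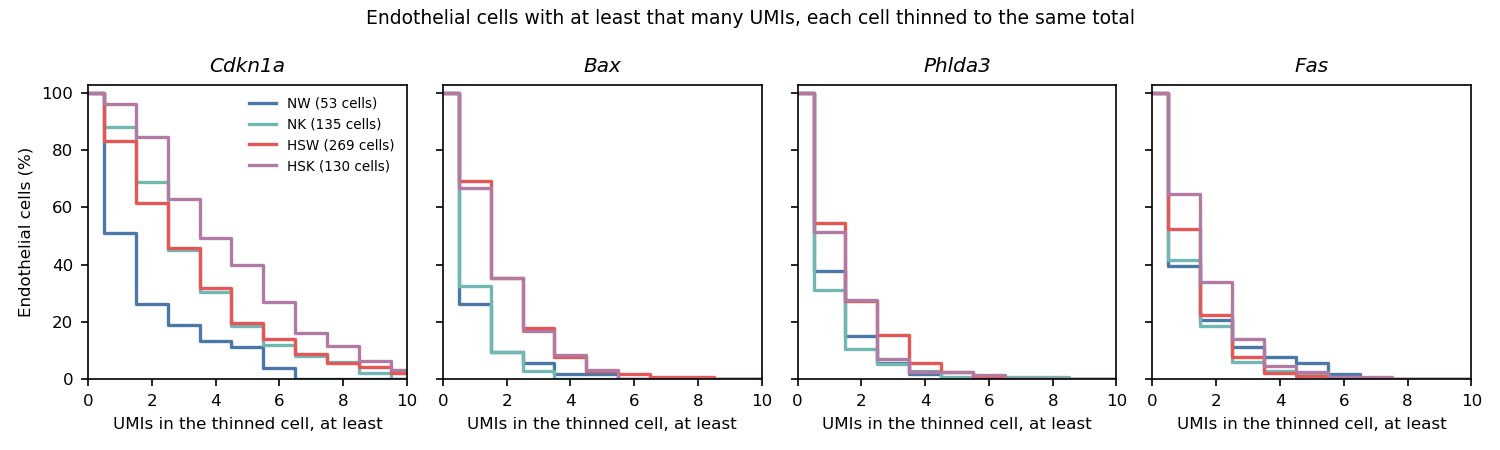
Percent of endothelial cells (vertical axis) holding at least a given number of UMIs (horizontal axis) of Cdkn1a, Bax, Phlda3 and Fas after every cell was thinned to 3182 UMIs, with 1 line a library. For Cdkn1a the NW line lies lowest and the HSK line highest, with NK and HSW close together; for Bax the lines of the 2 HySu libraries lie together above those of the 2 normoxia libraries.

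At a finer clustering the endothelial class divided into a larger cluster led by Cyp1a1, Ly6c1 and Tmem100 (37, 112, 245 and 113 cells) and a smaller one led by Vwf, Ptprb and Cyp1a1 (16, 23, 24 and 17 cells). In the larger cluster Cdkn1a was at 445, 935, 877 and 1349 and the ratio of HSW to NW was 1.97 (1.59 to 2.46). In the smaller cluster it was at 162, 880, 857 and 740, with a ratio of 5.30 (3.31 to 8.92) that rested on 20 UMIs in NW. The direction was shared, the size was not, and the share of the smaller cluster was larger in NW than in the other libraries. Bax had ratios of 2.38 (1.69 to 3.44) and 4.41 (2.24 to 9.64). Phlda3 had 1.31 (0.975 to 1.81) in the larger cluster, below the size used, and 4.59 (2.42 to 9.60) in the smaller, and Fas had 0.853 (0.658 to 1.12) and 3.48 (1.74 to 7.71).

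Other p53 and death genes in endothelial cells were taken from 11 lists, of which those on the pathway are given first. Of 25 p53 targets outside the members, 19 were measured in HSW and NW, 4 were higher and 0 lower, with a median log2 ratio of 0.13. Zmat3, an RNA-binding p53 target, had a ratio of 9.26 (1.58 to 373) that rested on 1 UMI in NW, and Ephx1, the microsomal epoxide hydrolase, had 3.98 (2.91 to 5.59). Of 12 measured regulators of p53, 0 were higher and 2 lower, Sirt1 (0.345) and Mdm4 (0.550), whose products deacetylate and bind p53. Among BCL2-family genes, 1 of 4 pro-survival genes was higher (Bcl2l1, encoding BCL-XL, 2.29), and of 5 pro-death genes Bad was higher (2.08) and Bak1 (0.420) and Bcl2l11 (0.434, BIM) were lower. Bax and Bak1, which encode the paired pore-forming proteins, thus lay on opposite sides of 1.

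Of 13 caspases and apoptosome genes, 3 were higher, Diablo (6.95, on 1 UMI in NW) among them, and 1 was lower, Birc2 (0.465), an inhibitor of apoptosis. Of 10 measured death receptor genes, 0 were higher and 1 lower, Tnfrsf1b (0.386). Cell cycle genes were 7 higher and 1 lower of 12 (Top2a 15.4, on 1 UMI in NW, and Mcm2 0.404). Top2a (80 UMIs in HSW) and Ube2c (68 in HSW, 2 in NW) reached the UMI number required of the pair through HSW. Genes this scarce in NW could not have been counted as lower, so these counts were partly set by that requirement. G1 cyclin and CDK genes were 4 higher and 1 lower of 9, with the inhibitors Cdkn1b (2.07) and Cdkn2d (2.70) higher and Ccnd2 (0.586) lower. Cells with at least 2 of 11 cycling genes numbered 0 of 53 in NW (upper limit of the interval 6.72%) and 9 of 269 in HSW (3.35%), and those 9 had Cdkn1a at 713 CPM against 881 in the others. Immediate early and dissociation genes, which react to tissue handling, were 2 higher and 1 lower of 10 (Atf3 2.51, Hspa1a 2.16, Egr1 0.547) and summed to 5707 in NW and 4908 in HSW. General leukocyte genes were 0 higher and 0 lower of 5, at a summed 296 and 264, and RNA of other cells, such as surfactant and secretoglobin genes, summed to 5195 and 4688. Within that sum Scgb1a1 (1.90) and Hba-a1 (2.97) were higher in HSW and Sftpb (0.353) and Sftpa1 (0.390) lower. The part of these in the members' values was not tested.

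Outside endothelial cells, HySu in wild-type lung went with lower Mdm2 in several classes and higher Bax in several. Bax was higher in endothelial cells too (2.93), and the interval of endothelial Mdm2 (0.738, 0.427 to 1.34) overlapped those of the classes with lower Mdm2. Over the 10 classes with enough cells, 92 pairs of a member and a class were measured in HSW against NW, of which 13 were higher (14.1%) and 12 lower (13.0%), beside 4.60% and 27.0% of all gene and class pairs. The median log2 ratio over all genes was below 0 in every class, from -0.11 in endothelial cells to -0.87 in airway cells, so the counts depend on scaling. With edgeR TMM factors the members were 28 higher and 3 lower (30.4% and 3.26%), beside 11.3% and 9.78% of all pairs.

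The brackets that follow give the level in NW, the level in HSW, the ratio and its interval where all are shown. Bax in alveolar macrophages had a ratio of 1.37 (1.30 to 1.44) and in monocytes of 1.33 (1.24 to 1.42), precise values below the size used. It passed in interstitial macrophages (136 to 238, ratio 1.75, 1.35 to 2.28), fibroblasts (71.7 to 115, 1.61, 1.13 to 2.29), conventional dendritic cells (168 to 258, 1.54, 1.32 to 1.80) and T and natural killer cells (134 to 202, 1.51, 1.15 to 1.97). These calls were lost under 1 of 9 alternatives in interstitial macrophages, 4 of 9 in fibroblasts, 2 of 9 in conventional dendritic cells and 3 of 8 in T and natural killer cells. Removing only Scrublet calls lost all of them, at 1.43, 1.43, 1.21 and 1.37 in that order. In alveolar type 2 cells it was 0.993 (0.843 to 1.17). Casp8 was likewise 1.31 (1.21 to 1.42) in alveolar macrophages and 1.20 (1.06 to 1.35) in monocytes. The interval of the endothelial Bax ratio, from 2.16, lay above those of alveolar macrophages, monocytes and alveolar type 2 cells and overlapped that of interstitial macrophages.

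Mdm2 was lower in HSW in alveolar type 2 cells (28.8 to 16.8, ratio 0.585, 0.462 to 0.737), monocytes (61.8 to 39.5, 0.639, 0.547 to 0.744), T and natural killer cells (0.424, 0.232 to 0.735) and conventional dendritic cells (0.459, 0.287 to 0.711). In these classes, in the same order, 33.9%, 26.6%, 27.0% and 26.4% of all genes were lower in HSW, so a lower value was common there. With TMM factors the alveolar type 2 and monocyte values were 0.790 and 0.781, inside the size used. The T and natural killer value was 0.679 (0.508 to 0.897) with only Scrublet calls removed. The conventional dendritic value was 0.595 (0.292 to 1.14) with thinned cells, and neither of these is a call. The alveolar type 2 class changed in make-up, with 448 NW and 710 HSW cells in its largest cluster and 648 and 239 in the next, where the Mdm2 ratios were 0.766 (0.553 to 1.07) and 0.414 (0.254 to 0.650). Ccng1 (0.590, 0.506 to 0.687) and Trp53inp1 (0.616, 0.442 to 0.847) were also lower in monocytes, but with TMM factors they were 0.722 and 0.753 and did not pass. Monocytes too changed in make-up, from 746 NW to 199 HSW cells in the cluster led by Ccr2 and from 175 to 35 in that led by Eno3. In the largest monocyte cluster, led by F13a1, Ccng1 was 0.575 (0.473 to 0.698) and Trp53inp1 0.570 (0.371 to 0.860). The part of the make-up in the class values was otherwise not tested. In airway cells Trp53, Mdm2, Trp53inp1 and Cdkn1a passed on the lower side, in a class in which 56.1% of all genes were lower. With TMM factors the 4 ratios were 0.603, 1.11, 0.870 and 1.17 and none passed, so no direction is given for them.

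Cdkn1a, the most abundant member, was higher in fibroblasts in HSW (80.8 to 148, 1.83, 1.33 to 2.54) and below the size used in interstitial macrophages (1.47, 1.22 to 1.79), conventional dendritic cells (1.46, 1.23 to 1.74) and alveolar type 2 cells (1.32, 1.15 to 1.52). It was 0.831 (0.795 to 0.868) in alveolar macrophages. The fibroblast call was lost with thinned cells (1.40, 0.901 to 2.18) and with a mean over cells of the CPM of each cell (1.35, 0.983 to 1.87). Fas stood out in B cells, whose level was 28.2 in NW, 34.3 in NK and 117 in HSW, a ratio of HSW to NW of 4.15 (2.62 to 6.71). The share of thinned B cells with Fas was 5.14% in NW, 5.19% in NK and 19.2% in HSW, and HSK had 11 B cells, too few to compare. T and natural killer cells had Fas at 46.9 in NW and 85.6 in HSW (1.82, 1.17 to 2.85), and 1.59 (0.989 to 2.57) without the cell with most Fas UMIs, which is not a call.

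**Figure D4:**
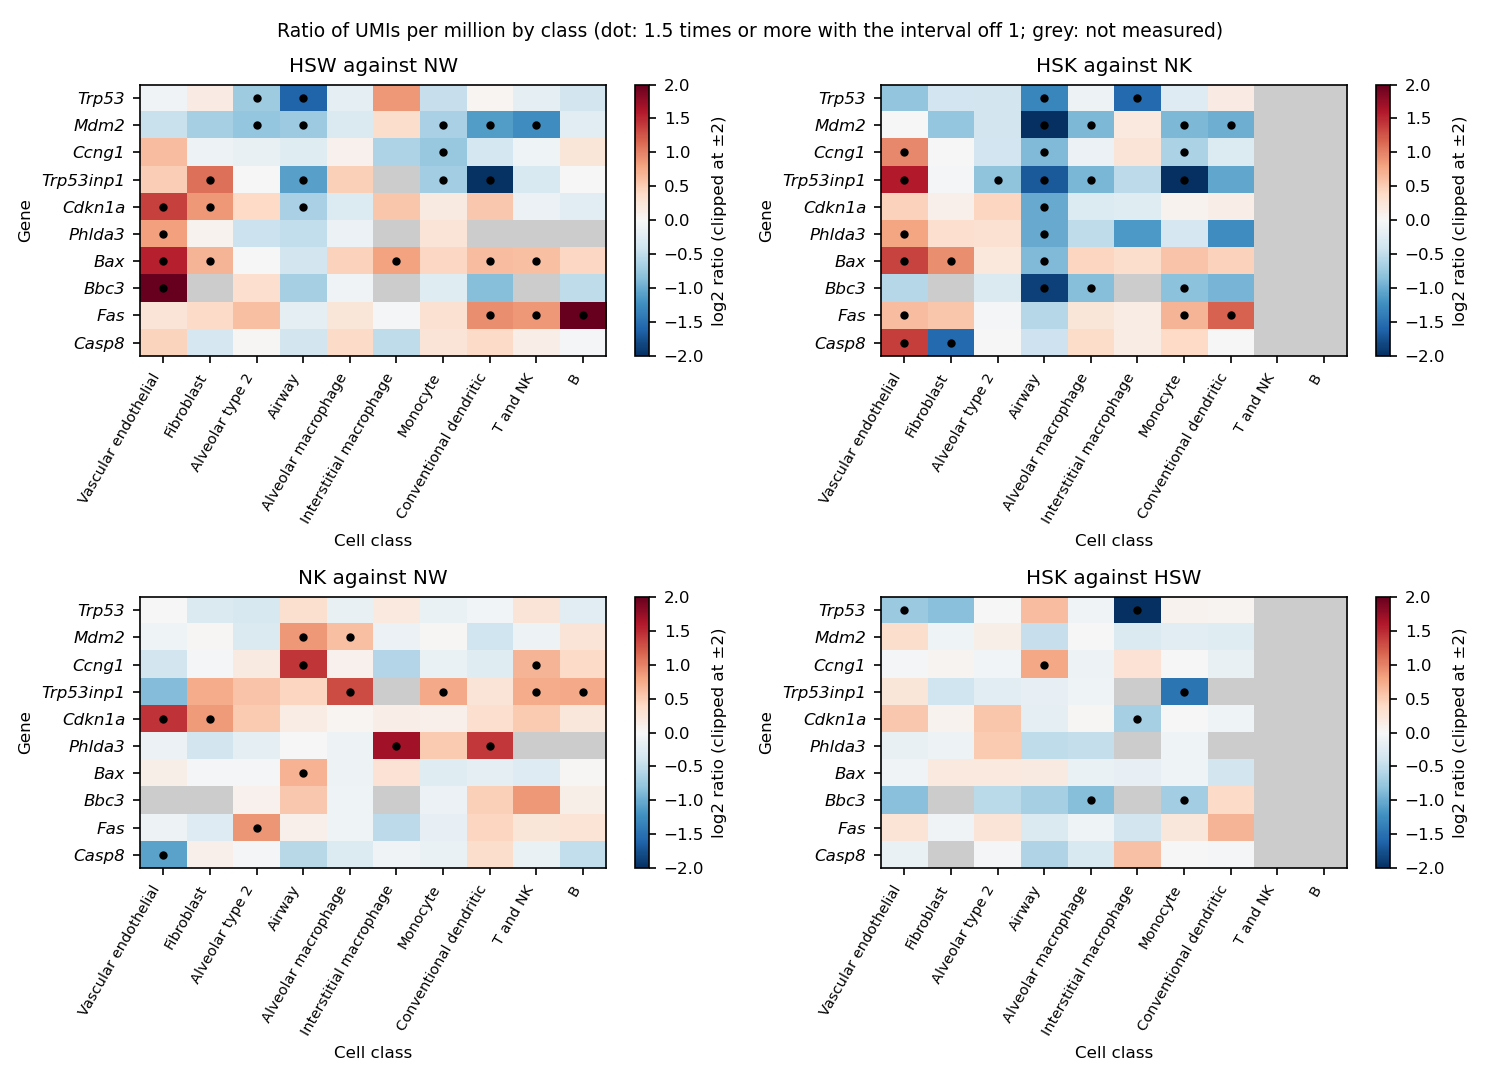
Log2 ratio of CPM (colour, clipped at ±2) for each gene (rows) and class (columns) in the 4 comparisons; dots mark ratios of at least 1.5 times in either direction whose 95% interval leaves out 1, and grey marks pairs that were not measured. The endothelial column is red for Cdkn1a, Bax and Phlda3 in HSW against NW, Mdm2 and Trp53inp1 are blue in most other classes of HSK against NK, and the airway column of HSK against NK is blue for every member, a column in which the median of all genes is -1.35 and in which directions depend on the scaling.

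FUNDC1 knockout under normoxia was read from NK against NW, which shares the NW library with the comparison above. In endothelial cells Cdkn1a was higher in NK and Casp8 lower, and the other members that could be measured did not pass the size used. Cdkn1a had 551 UMIs in NK and 111 in NW, a ratio of 2.73 (2.22 to 3.38), and 2.10 (1.67 to 2.66) and 5.44 (3.34 to 9.28) in the larger and the smaller cluster. Casp8 was at 33.5 in NK and 70.2 in NW (0.478, 0.249 to 0.910), a call lost under 3 of 9 alternatives. Its interval included 1 when the cell with most Casp8 UMIs was left out (0.518, 0.256 to 1.04) and with thinned cells (0.513, 0.235 to 1.15). With only Scrublet calls removed the ratio was 0.854 (0.654 to 1.12). The count of 1 higher and 1 lower of 9 measured members stands beside 7.15% and 6.25% of 6864 genes, and the median log2 ratio of the members was -0.11 against 0.03 for all genes. Because both ratios of Cdkn1a rest on the 53 NW cells, and those on 111 UMIs, a low value in that library enters both.

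Bax (1.09, 0.752 to 1.59), Phlda3 (0.923, 0.662 to 1.30), Mdm2 (0.938, 0.498 to 1.82) and Trp53 (0.990, 0.508 to 2.00) had ratios near 1 in NK endothelial cells with intervals that allow differences of the size used. Fas had 0.935 (0.701 to 1.26) in the class but 0.652 (0.475 to 0.901) in the larger and 3.01 (1.42 to 6.96) in the smaller cluster, opposite directions that the sum hides. Bbc3 held 11 UMIs in NK and 1 in NW, under the 20 required.

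The wider lists in NK endothelial cells had 1 of 13 measured p53 targets higher and 0 lower (Epha2, 2.26), 3 of 10 p53 regulators higher (Hipk2, a p53 kinase, 2.87, and Crebbp, a p53 acetyltransferase, 1.82) and 2 of 4 pro-survival BCL2 genes higher. Those were Bcl2l1 (5.25, 2.64 to 11.9) and Mcl1 (1.64). Of 5 pro-death genes 0 were higher and Bak1 was lower (0.452), and of 8 caspase and apoptosome genes 1 was higher, Apaf1 (3.02), which forms the apoptosome. No death receptor gene of 6 and no cell cycle gene of 3 measured passed. G1 genes were 2 higher of 8, Rb1 (2.44) and Cdk6 (2.16), which are adversaries at the G1 checkpoint. Leukocyte genes were 2 higher of 5 (Ptprc 2.68, Laptm5 2.08), at a summed 424 in NK against 296 in NW, a value whose part was not tested. Platelet markers summed to 173 CPM in NK and 6.10 in NW.

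Elsewhere in the knockout lung under normoxia, the member with most calls was Trp53inp1. It was higher in NK in alveolar macrophages (6.34 to 15.6, ratio 2.46, 1.95 to 3.13), monocytes (14.9 to 25.2, 1.70, 1.34 to 2.14), T and natural killer cells (75.1 to 125, 1.67, 1.24 to 2.27) and B cells (35.0 to 59.3, 1.69, 1.11 to 2.62). In alveolar type 2 cells it was 1.49 (1.16 to 1.93), in airway cells 1.35 (0.963 to 1.91), in fibroblasts 1.68 (0.885 to 3.34) and in endothelial cells 0.550 (0.216 to 1.40). The macrophage value was 3.50, 2.05 and 1.69 in the 2 largest clusters of alveolar macrophages and in the cycling cluster, and the monocyte value 1.43, 1.92 and 2.27 in 3 monocyte clusters, so it was above 1 in each of these clusters. With only Scrublet calls removed the T and natural killer value was 1.37 (1.17 to 1.61), which is not a call. The B cell call was lost with thinned cells (1.46, 0.846 to 2.59) and with a mean over cells of the CPM of each cell (1.45, 0.948 to 2.24).

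Mdm2 was higher in NK in alveolar macrophages (38.8 to 58.7, 1.51, 1.37 to 1.67) and airway cells (38.4 to 69.7, 1.82, 1.37 to 2.42), and 1.02 (0.893 to 1.16) in monocytes. In the 3 macrophage clusters named above it was 1.44, 1.75 and 1.58, and with TMM factors the class value was 1.46. The macrophage call was lost under 6 of 11 alternatives, with values from 1.44 to 1.75 over all of them. The airway value was 1.44 (1.09 to 1.93) with TMM factors, under the size used, in a class in which 19.4% of all genes were higher in NK. Cdkn1a was higher in NK fibroblasts (80.8 to 146, 1.81, 1.33 to 2.47), 1.44 (1.25 to 1.66) in alveolar type 2 cells and 1.03 (0.994 to 1.07) in alveolar macrophages. Over all classes 14 of 94 pairs (14.9%) were higher and 1 (1.06%) lower, beside 8.86% and 4.41% of all pairs. With TMM factors the counts were 11 and 1.

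**Figure D5:**
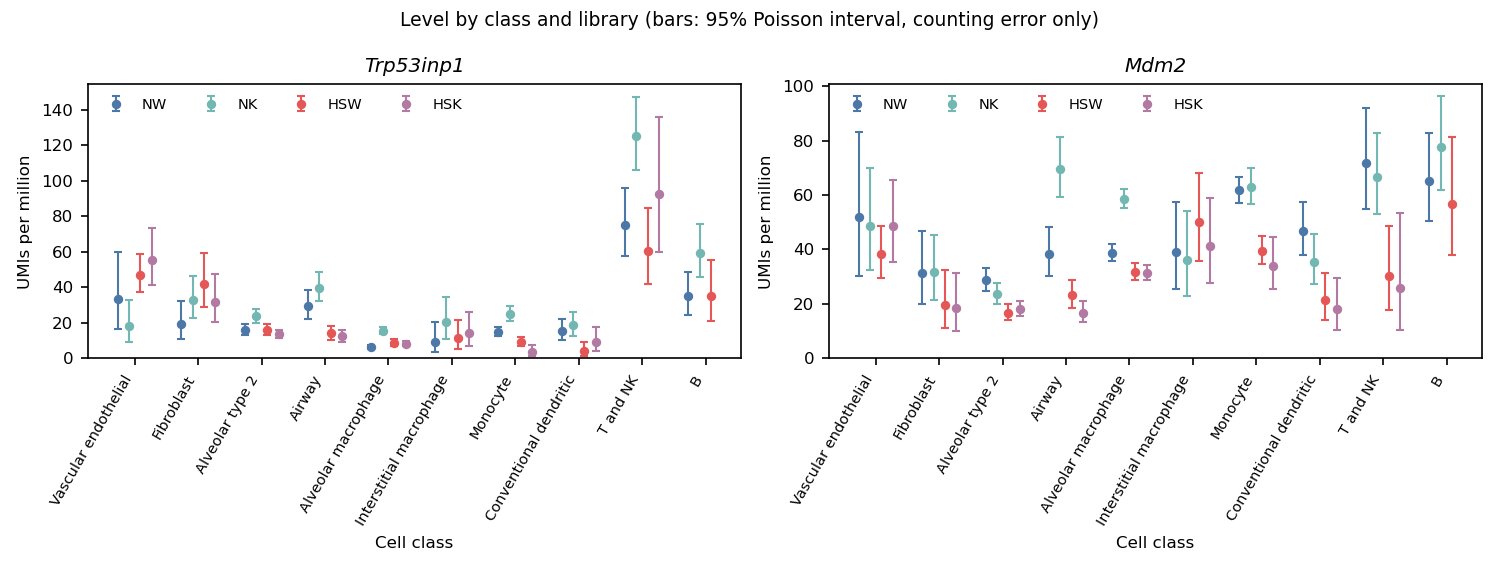
CPM (vertical axis) of Trp53inp1 and Mdm2 in each class (horizontal axis) in the 4 libraries; points are library values and bars the exact Poisson 95% interval, which covers counting error only. The NK point of Trp53inp1 is the highest in alveolar macrophages, monocytes, T and natural killer cells and B cells, and the NK point of Mdm2 is the highest in alveolar macrophages (58.7) and airway cells (69.7).

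Knockout under HySu was read from HSK against HSW. In endothelial cells Cdkn1a was again higher with the knockout, by less than the size used, and Trp53 was lower. Cdkn1a held 1119 UMIs in HSK and 1487 in HSW, a ratio of levels of 1.45 (1.34 to 1.57), with 1.54 (1.42 to 1.67) in the larger cluster and 0.863 (0.654 to 1.13) in the smaller, so the higher level was measured in the larger cluster only. Trp53 was at 26.1 in HSK and 43.5 in HSW (0.599, 0.358 to 0.967), and its interval included 1 under 4 of 10 alternatives, among them removal of Scrublet calls alone (0.777, 0.557 to 1.07). Over the whole class Bax (0.950, 0.832 to 1.08), Phlda3 (0.903, 0.775 to 1.05) and Casp8 (0.916, 0.689 to 1.21) differed by less than the size used, with intervals that leave out ratios of 1.5 times in either direction. In the smaller cluster, however, Phlda3 was lower by the size used, at 0.505 (0.304 to 0.813), so its class value does not hold for both clusters. Fas in the class was 1.21 (1.04 to 1.40). The count was 0 higher and 1 lower of 10 members, beside 3.97% and 4.26% of 9293 genes, and the median log2 ratio was -0.04 against -0.03.

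Among the wider lists, 2 of 19 p53 targets were higher in HSK and 0 lower. They were Gdf15, a stress-induced cytokine of the TGF-beta family (114 against 48.8, ratio 2.34, 1.74 to 3.17) and Epha2 (1.72). No p53 regulator (0 of 12), BCL2-family gene (0 of 4 and 0 of 6), caspase or apoptosome gene (0 of 13) or death receptor gene (0 of 10) passed in either direction. Cell cycle genes were 9 higher and 0 lower of 14 (Rrm2 3.64, Ube2c 3.51), and the inhibitors Cdkn2c (1.86) and Cdkn2d (1.54) were the 2 G1 genes that passed, both higher. Cycling cells were 10 of 130 in HSK (7.69%) and 9 of 269 in HSW (3.35%). Cycling HSK cells had Cdkn1a at 2018 CPM (158 UMIs) and the others at 1195 (961 UMIs), so the level in cells with fewer than 2 of these genes was still above the 881 of such cells in HSW. RNA of other cells was higher in HSK, at a summed 9423 against 4688, with Scgb1a1 at 2.21 and Sftpc at 1.85, and its part in the values was not tested.

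Over the 8 classes compared, endothelial cells included, 1 of 73 measured pairs (1.37%) was higher in HSK and 6 (8.22%) lower, endothelial Trp53 among them, beside 4.09% and 4.90% of all pairs. Interstitial macrophages had lower Cdkn1a in HSK (387 to 244, ratio 0.630, 0.520 to 0.762) and lower Trp53 (40.0 to 8.50, 0.212, 0.0726 to 0.515, on 6 UMIs in HSK). In these cells neutrophil markers summed to 4421 in HSW and 1091 in HSK, platelet markers to 2190 and 4707, and RNA of other cells to 4992 and 7931, and their part in the values was not tested. The platelet markers include Pf4, which was among the leading genes of the interstitial macrophage cluster itself, so that sum need not be RNA of platelets. Alveolar macrophages had lower Bbc3 (7.43 to 4.12, 0.555, 0.393 to 0.780) and had Phlda3 at 0.715 (0.659 to 0.775), and monocytes lower Bbc3 (23.6 to 14.6, 0.620, 0.376 to 0.978) and Trp53inp1 (9.16 to 3.33, 0.363, 0.113 to 0.903). The Trp53inp1 value rested on 5 UMIs in HSK and did not pass with Scrublet calls alone removed (0.462, 0.177 to 1.02) or with thinned cells (0.282, 0.0325 to 1.12), and Bbc3 did not pass under 3 of 9 alternatives. The monocyte cluster led by Eno3 held 35 HSW and 2 HSK cells. The pair that was higher was Ccng1 in airway cells (1.71, 1.14 to 2.61). Alveolar type 2 cells had Cdkn1a at 67.9 in HSW and 99.9 in HSK (1.47, 1.32 to 1.64), and both large alveolar type 2 clusters had it higher, at 68.7 to 93.5 and 66.6 to 122.

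HySu in the knockout was read from HSK against NK. In endothelial cells Bax, Casp8, Trp53inp1, Ccng1, Phlda3 and Fas were higher in HSK and none of the 10 was lower, while Cdkn1a was 1.37 (1.24 to 1.52). Cdkn1a did pass with TMM factors (1.59, 1.43 to 1.76) and with only Scrublet calls removed (1.58, 1.47 to 1.70). Over all alternatives it ran from 0.840 to 1.59. Bax had a ratio of 2.56 (2.02 to 3.27), Phlda3 1.73 (1.37 to 2.21), Fas 1.54 (1.25 to 1.91) and Casp8 2.60 (1.57 to 4.49). Trp53inp1 had 3.01 (1.54 to 6.42) and Ccng1 1.95 (1.10 to 3.61), and these 2 were 1.45 and 1.02 when only Scrublet calls were removed. In the smaller cluster Fas was 1.20 (0.705 to 2.05) and Phlda3 1.97 (0.949 to 4.33), neither of them a call. The 6 of 10 higher members stand beside 9.94% of 8098 genes higher and 19.1% lower, with a median log2 ratio of 0.71 against -0.20 for all genes. Death receptor and caspase thus both passed in the knockout, where the normoxia library had the lowest Casp8 of the 4. RNA of other cells in this class summed to 5374 in NK and 9423 in HSK, with Scgb1a1 at a ratio of 3.31. Of the immediate early and dissociation genes Atf3 (2.84) and Hspa1a (1.56) were higher, and the part of these in the members' values was not tested.

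The p53 targets outside the members were 6 higher and 2 lower of 16 in this pair. Zmat3 (7.77, on 2 UMIs in NK) and Gdf15 (7.58, 3.84 to 17.1) had the largest ratios, and Plk3 (0.375) and Tnfrsf10b (0.375), a death receptor for TRAIL, were lower. P53 regulators were 0 higher and 5 lower of 12, with Trp53bp1 at 0.286 and Hipk2 at 0.316. Pro-survival genes were 0 higher and 2 lower of 4, Mcl1 at 0.492 and Bcl2l1 at 0.574. Bad (3.28) was the pro-death gene that passed. Of 12 caspase and apoptosome genes 3 were higher and 1 lower, Apaf1 (0.338), and death receptor genes were 0 higher and 1 lower of 8. Cell cycle genes were 9 higher and 0 lower of 13. Ube2c (124 UMIs in HSK, 1 in NK) and Top2a (77 and 1) reached the UMI number required of the pair through HSK. Genes this scarce in NK could not have been counted as lower, so the count of 0 lower was partly set by that requirement. G1 genes were 1 higher and 2 lower of 9, with Cdkn2c at 5.07 and Cdk6 at 0.298.

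Over the 8 classes compared, 9 of 78 measured pairs (11.5%) were higher in HSK, 6 of them the endothelial ones, and 19 (24.4%) lower, beside 6.02% and 38.8% of all pairs. With TMM factors the members were 27 higher and 4 lower (34.6% and 5.13%), beside 14.8% and 12.9%, so the direction of a count over classes is set by the scaling. Lower Mdm2 in alveolar macrophages (58.7 to 31.5, 0.536, 0.480 to 0.598) and airway cells (69.7 to 16.8, 0.241, 0.182 to 0.316) and lower Trp53inp1 in monocytes (25.2 to 3.33, 0.132, 0.0422 to 0.315) kept their call under every alternative run. In these classes 25.7%, 79.6% and 33.0% of all genes were lower in HSK, so a lower value was common there, above all in airway cells. Airway Mdm2 was as high as 0.598 among the alternatives, and the monocyte value rested on 5 UMIs in HSK. Fibroblasts had higher Bax (69.9 to 133, 1.90, 1.38 to 2.63), monocytes higher Fas (36.7 to 59.2, 1.61, 1.24 to 2.08) and conventional dendritic cells higher Fas (2.26, 1.25 to 4.09). The last was 2.01 (0.987 to 4.10) without the cell with most Fas UMIs, and monocyte Fas was 1.47 (1.15 to 1.87) with only Scrublet calls removed, neither of them a call.

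The HySu ratio of the knockout divided by that of wild type, (HSK/NK)/(HSW/NW), was computed for each member with its exact counting interval. In endothelial cells it was 0.531 (0.423 to 0.663) for Cdkn1a, so HySu went with a smaller ratio of Cdkn1a where FUNDC1 was absent, from a higher normoxia level. For Bbc3 it was 0.0922 (0.00209 to 0.806), resting on 1 UMI in NW, and 0.770 (0.380 to 1.56) when only Scrublet calls were removed. Bax (0.874, 0.583 to 1.30), Phlda3 (0.978, 0.674 to 1.42), Fas (1.29, 0.929 to 1.80), Casp8 (1.91, 0.943 to 3.93) and Trp53inp1 (2.15, 0.780 to 5.93) had intervals that include 1, so no difference of the HySu ratios was detectable for them at this depth. Outside endothelial cells some of the intervals that left out 1 were those of alveolar macrophages, where the value was 0.655 (0.551 to 0.779) for Mdm2 and 0.381 (0.265 to 0.549) for Trp53inp1. Others were 0.214 for Trp53inp1 in monocytes, 0.574 (0.429 to 0.767) for Cdkn1a in interstitial macrophages and 0.399 for Mdm2 in airway cells. How often such intervals left out 1 over all genes was not computed, so nothing is read from how many members did.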

How the data were processed

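The deposited matrices hold raw UMI counts per gene and cell, whole numbers that the authors made from 3′-tagged polyA RNA of lung cells and did not normalize. Per the submitters' processing notes, the tools were featureCounts 2.0.1, STAR 2.6.1a, cutadapt 1.17 and Scanpy, and the builds GRCm38 and mm10. The order and settings are not given in the sources used here. Library totals were 62747087 (NW), 63501686 (NK), 45589625 (HSW) and 41308071 (HSK) UMIs in 7649, 9164, 5041 and 4128 cells, and the shallowest cell held 3775, 3182, 4230 and 4726.

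Cells with under 200 genes or over 20% mitochondrial UMIs were removed. Scrublet, run through scanpy 1.11.5, called 4, 1, 8 and 30 cells, too few to have worked in most libraries, so cells were also removed in which markers of a second lineage had 3 or more UMIs and reached 0.15 of the level in that lineage, or haemoglobin made up 1% or more. These thresholds were set after clusters were seen, before ratios were computed. Clusters (leidenalg 0.10.2, resolution 1) were named from fixed markers, at least 3 detected. UMIs were summed per class and library, and levels are CPM, UMIs scaled to a total of 1000000 for each class and library. Levels have exact Poisson intervals, shares exact Clopper-Pearson intervals and ratios conditional Clopper-Pearson intervals, all at 95% and over counting error alone. Pairs with at least 50 cells in each library were compared. Alternatives used edgeR 4.0.16 (TMM factors only), thinned cells, other cell filters and another clustering. The procedure was tested on simulated data.

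The 10 genes and the 11 lists were chosen with earlier results of these data known. Named list genes are, per list and comparison, the 2 highest and 2 lowest endothelial ratios whose interval leaves out 1. The RefSeq promoter table had no window for Trp53inp1. A gene that this rule names is not reported here.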

Additional observations from a re-analysis of the deposited data

Results flagged for a closer look

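Directions opposite between the genotypes or the conditions were measured for 3 pairs of a gene and a class, and no difference between mice was tested for any of them. Trp53inp1 in alveolar macrophages was higher with HySu in wild type (HSW against NW 1.39, 95% counting interval 1.04 to 1.86) and lower with HySu in the knockout (HSK against NK 0.532, 0.428 to 0.659). Its 4 levels were 6.34 (NW), 15.6 (NK), 8.85 (HSW) and 8.32 (HSK) CPM, so NK was the library apart.

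Trp53inp1 in monocytes was higher in the knockout under normoxia (NK against NW 1.70, 1.34 to 2.14) and lower in the knockout under HySu (HSK against HSW 0.363, 0.113 to 0.903), at 14.9, 25.2, 9.16 and 3.33 CPM. The HSK level rested on 5 UMIs, and the interval of the ratio of HSK to HSW included 1 with Scrublet calls alone removed (0.462, 0.177 to 1.02) and with thinned cells (0.282, 0.0325 to 1.12). Mdm2 in airway cells was higher in the knockout under normoxia (NK against NW 1.82, 1.37 to 2.42) and lower under HySu (HSK against HSW 0.725, 0.529 to 0.994), at 38.4, 69.7, 23.1 and 16.8. The HySu ratio was short of the size used, and its interval nearly reached 1. With TMM factors the normoxia ratio was 1.44 (1.09 to 1.93), also short of it, and no TMM value is given for the HySu ratio. Directions in airway cells depend on the scaling, so the opposition is not a firm one. HSK held 219 monocytes against 833 in HSW, with 2 against 35 in the cluster led by Eno3.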

How the results depend on the processing

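For single members, 1055 values under 11 alternatives were compared with the 115 main values. Of these, 895 kept their call or lack of one, and 142 kept their direction but no longer passed for size, interval or UMI number. Another 9 came to pass, among them Fas in NK against NW, from 0.935 to 3.01 in the smaller endothelial cluster. The last 9 had passed and turned direction. Direction was not compared where neither value passed. Endothelial Mdm2 in HSK against HSW, for example, was 1.27 and ran from 0.945 to 1.43 under the alternatives. With edgeR TMM factors the reversed ratios were, in airway cells, Mdm2 1.11 and Cdkn1a 1.17 (HSW against NW) and Trp53 1.00, Ccng1 1.35, Cdkn1a 1.24, Phlda3 1.24 and Bax 1.34 (HSK against NK). Mdm2 in airway cells (HSW against NW) was 1.37 with thinned cells, and Phlda3 in conventional dendritic cells (NK against NW) was 0.542 when only Scrublet calls were removed. In endothelial cells Cdkn1a (1.97 to 5.30) and Bax (2.38 to 4.41) in HSW against NW kept their call under 10 of 10 alternatives each.

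Members highest in endothelial cells in all 4 libraries numbered 2, and 1 under removal of Scrublet calls alone, a common lowest UMI number, removal of abundant genes and resolution 2. With thinned cells the pairs past the size in HSW against NW were 13, not 25, the list genes 22, not 35, the NK against NW list genes 8, not 14, and the share of HSW endothelial cells with Cdkn1a 83.3%, not 92.2%. Thinned cells hold fewer UMIs. Removing only Scrublet calls gave 23 list genes for NK against NW, 8, not 18, for HSK against HSW and 44 pairs, not 28, for HSK against NK. Leaving out cycling cells gave 8 list genes for HSK against HSW, and a mean over cells gave 11 pairs, not 7. Apart from fewer UMIs, the cause was not tested. The single clusters were added after the data were seen. Without the cell holding most Bbc3 UMIs, NW endothelial cells had none, so no ratio is given. A common lowest UMI number left under 50 endothelial cells in NW, so comparisons with NW are not given for it. No paired analysis was possible because each group is 1 library with no replicate number.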

Other observations

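Cycling alveolar macrophages, a cluster led by Ube2c, Top2a and Mki67 (76, 115, 37 and 79 cells in NW, NK, HSW and HSK), had more Cdkn1a than the other alveolar macrophages. The level was 625, 564, 561 and 499 CPM in the cycling cluster and 316, 330, 267 and 269 in the others, so the order was the same in all 4 libraries although the product of Cdkn1a halts division. The cycling cluster had a median of 13170 UMIs a cell. In endothelial cells the order differed between the HySu libraries, at 713 in 9 cycling cells against 881 in HSW and 2018 in 10 cycling cells against 1195 in HSK.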
